A study of Homo sapiens with 2 samples.

Results

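The genes described here build and run the mitotic spindle, or belong by name to the families that do. Members were all genes whose symbol in the platform's probe annotation starts with KIF, CENP, CEP and a digit, AURK, BUB, PLK, CCNA, CCNB, NUF, SPC24, SPC25, NDC80, NCAP, ANAPC, HAUS, TUBG or TUBB, together with CDC20, TTK, TPX2, TOP2A, MKI67, UBE2C and DLGAP5. Antisense symbols were left out. This gave 133 genes of the 13763 named genes on the array, read by 142 probe sets. No probe set carried a symbol of the condensin (NCAP), augmin (HAUS), gamma-tubulin or beta-tubulin families, nor of TPX2, UBE2C or DLGAP5, so these are not analysed here. SPC24, SPC25, NUF2, CENPE, CENPF and CCNA1 are not among the 133 genes either, so the kinetochore and cyclin genes read here are a partial set.

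RNA came from S2-013 cells, a human pancreatic cancer cell line, and was read on Affymetrix whole-transcript arrays. In 1 sample the cells had HOXB7, a homeobox transcription factor, knocked down, carried a plasmid that restores HOXB7, and received an inhibitor of MEK, the kinase that activates ERK. The other sample, the control, had the same knockdown and the same plasmid but no MEK inhibitor. Per the design text, the aim was to find factors and pathways controlled by MEK signalling linked to HOXB7. The sources used here do not give the inhibitor's name, its dose, the time of exposure or the means of knockdown, and no parental or knockdown-only cells were analysed here.

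With 1 array per condition there is no replicate error, and no test was run on any value below. HOXB7 read 5.85 with the inhibitor and 5.84 without it on the log2 scale. A list of 18 ERK feedback and target genes, written with earlier results of these arrays known, read lower with the inhibitor in all 18 genes, with a median log2 difference of -1.07 and EGR1 (-2.94) and SPRY4 (-2.15) lowest. Of all genes above the expression floor explained below, 46.1% read lower. Among the 18, 6 reached that floor only without the inhibitor, so their direction was fixed, and the 12 that reached it on both arrays were all lower. All 6 named ductal epithelial markers reached the floor in at least 1 array, as did 1 of 4 acinar and endocrine markers, 1 of 3 fibroblast markers, 2 of 4 endothelial markers and 2 of 2 leukocyte markers. Of the ductal markers, SOX9 read 6.79 under the inhibitor and 8.03 in its absence, whereas the other 5 differed by between -0.29 and 0.35 (KRT7). The leukocyte markers CD68 and TYROBP differed by -0.43 and -0.39, the fibroblast marker DES by -0.54 and the acinar marker CTRC by 0.30. TYROBP reached the floor only without the inhibitor, and CTRC and KRT7 only with it, so the directions of these markers were fixed. The endothelial markers ESAM and CLDN5 differed by -0.63 and -0.06, while VWF (0.10) and PECAM1 (0.65) were below the floor. The part of such cells or transcripts in the differences below was not tested.

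In a dividing cell, the spindle is a bipolar array of microtubules that grows from centrosomes. Kinesins are motors that slide, bundle or shorten these microtubules, and the kinetochore is the protein layer on each centromere that the microtubules grip. The Aurora and Polo-like kinases and cyclin-dependent kinase bound to A- and B-type cyclins drive the sequence, and the anaphase-promoting complex ends it by marking cyclins and securin for destruction. Many of these transcripts are made in G2 and mitosis and are low in resting cells. Other kinesins carry cargo in every phase of the cycle, and many CEP proteins also form the base of the primary cilium, which grows from a centriole in resting cells.

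Where several probe sets read a gene, the one with the highest average level stands for it, and a difference is the log2 value with the MEK inhibitor minus that without it. Genes were counted only if they reached 4.78 on either array, the level at the middle of all named genes when both arrays are averaged, here called the floor. Of the 133 members, 107 reached it and 26 did not. Of the 107, 99 reached it on both arrays, 5 only with the inhibitor and 3 only without it, and the direction of those 8 is fixed by how they passed. None of the 107 differed by 2-fold or more, against 1.68% of all 7164 named genes above the floor. A 1.5-fold difference was reached by 4 members downwards (CEP170P1, CENPV, CENPM and KIF15), against 3.6% of all genes. Upwards it was reached by PLK2 and CEP162, 2 members, against 4.62% of all genes. Where 2 probe sets read a single gene, their log2 differences disagreed by a median of 0.16, with a 95th percentile of 0.80, over 443 pairs from 145 genes. This covers probe error and not the variation between cultures. Only PLK2 and CEP170P1 differed by more than that 95th percentile, 1.87% of members, against 3.52% of all genes above the floor. Of the 107, 60 (56.1%) differed by more than the median disagreement, against 55.5% of all genes, so the shares were alike.

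A difference below 0 was read for 59 of the 107 members, against 46.1% of all genes above the floor. The median difference was -0.06 for members and 0.03 for all genes. Medians of the members differed by function. The 29 whose transcripts are known to peak in G2 and mitosis, here called the G2/M members, all reached the floor, and 23 of them read lower with the inhibitor, with a median of -0.16 and a range from -0.63 to 0.24. That median lies just within the median disagreement between probe sets. Of the 29, 17 (58.6%) differed by more than that disagreement, against 55.5% of all genes, and none by more than the 95th percentile. The other 78 members had a median of 0.02, with 36 lower and 42 higher. Their range, over more genes, was wider, from -0.90 to 0.83, and its lower end is the pseudogene CEP170P1. That gene reached the floor only without the inhibitor. The lower and upper quartiles were -0.17 and 0.20 for these 78, against -0.36 and -0.03 for the G2/M members. In bulk RNA, fewer cells in G2 and mitosis and less of each transcript per cell cannot be told apart. The G2/M list was written from textbook knowledge with earlier results of these arrays known, and its members share 2 arrays and 1 transcriptional programme, so the count is no set of independent observations.

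**Figure D1:**
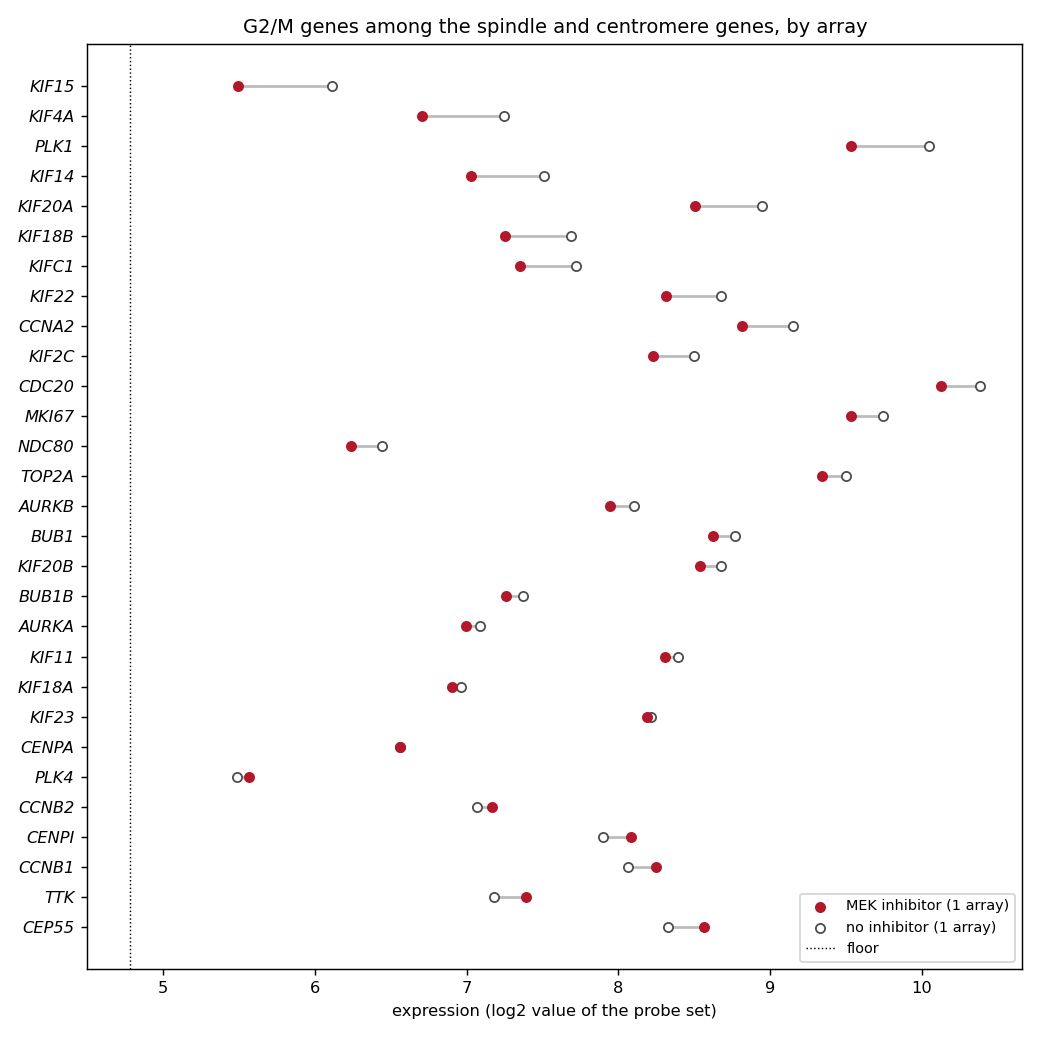
Expression of the 29 G2/M members (rows, from the lowest to the highest difference) in each array, as the log2 value of the gene's probe set on the x axis, with the MEK inhibitor as filled red points and without it as open points. The red point lies to the left in the upper 23 rows, from KIF15 (-0.63) to CENPA (0.00 after rounding), and to the right for PLK4, CCNB2, CENPI, CCNB1, TTK and CEP55.

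**Figure D2:**
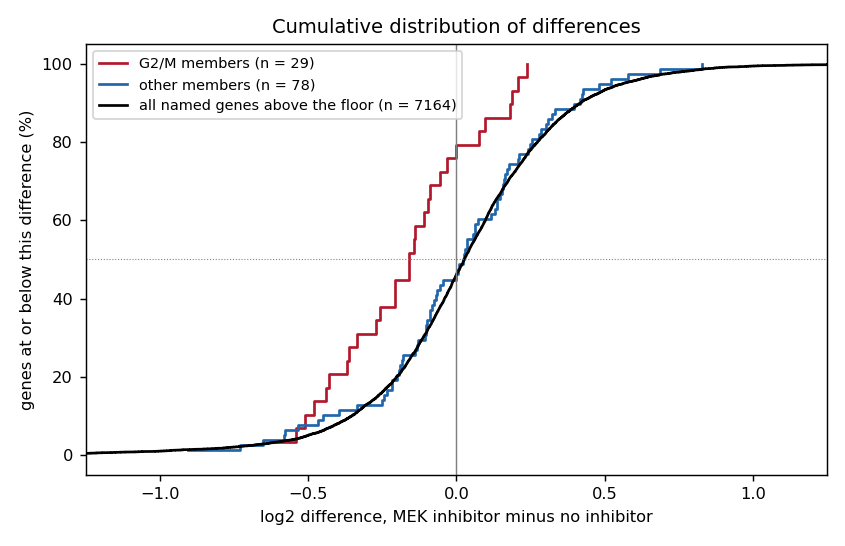
Cumulative share of genes (y axis, percent) at or below each log2 difference, MEK inhibitor minus no inhibitor (x axis), for the 29 G2/M members, the other 78 members and all 7164 named genes above the floor. Around its median of -0.16 and up to its end at 0.24, the G2/M curve lies to the left of both others, while in the lowest tail the curves meet, and the other members (median 0.02) follow all genes (0.03).

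Nearly all mitotic kinesins read lower. Of 14 above the floor, 13 read lower with the inhibitor, against 46.1% of all genes above the floor, and their median difference was -0.32. Of the 14, 9 (64.3%) differed by more than the median disagreement between probe sets, against 55.5% of all genes. KIF15, which helps keep the spindle bipolar, read 5.49 with the inhibitor and 6.12 without it, 1.54-fold lower. KIF4A, a chromokinesin that acts on chromosome arms and the central spindle, differed by -0.54, with 6.71 under the inhibitor and 7.25 in its absence. KIF14, a cytokinesis motor, read 7.03 with the inhibitor and 7.51 without it. These 3 motors had the lowest differences of their role. KIF20A, which carries the Aurora B complex to the central spindle, read 8.51 with the inhibitor and 8.95 without it. KIF18B, which shortens astral microtubules, read 7.26 with the inhibitor and 7.68 without it. KIF22, a chromokinesin that pushes chromosomes towards the spindle equator, differed by -0.36, and KIF2C, the depolymerase of the centromere, by -0.27.

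Motors with differences closer to 0 included the main spindle-bipolarity motor. KIF11, which slides antiparallel microtubules apart, differed by -0.09, with 8.31 under the inhibitor and 8.39 in its absence. KIF23, the motor subunit of centralspindlin, differed by -0.03, KIF18A, which dampens chromosome movements, by -0.06, and KIF2A, a depolymerase of spindle poles, by -0.07. All 4 lie inside the median disagreement between probe sets. KIF20B, a cytokinesis motor, differed by -0.14, which is also inside it. The exception in sign was KIF4B, an intronless copy of KIF4A, which read 6.55 with the inhibitor and 6.35 without it. Because the copies are nearly identical in sequence, their probe sets may share signal and both values are uncertain.

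KIFC1, a motor that moves towards microtubule minus ends and clusters centrosomes, was the member with the largest disagreement between its own probe sets. It differed by -0.37, with 7.35 under the inhibitor and 7.72 in its absence. Of its 4 probe sets, 1 had the same values as this in both arrays, another differed by -0.42, and the last read 4.13 with the inhibitor and 3.72 without it, below the floor and in the opposite direction (0.41). KIF2B was the only mitotic kinesin below the floor.

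The mitotic kinases and checkpoint genes leaned the same way with smaller differences. Of 10 above the floor, 7 read lower, against 46.1% of all genes, and the median was -0.11. Only 3 of the 10 differed by more than the median disagreement between probe sets. PLK1, the Polo-like kinase of mitotic entry and spindle assembly, read 9.54 with the inhibitor and 10.05 without it, 1.42-fold lower. AURKB, the kinase of the chromosomal passenger complex, read 7.95 with the inhibitor and 8.11 without it. AURKA, the spindle pole kinase, read 6.99 with the inhibitor and 7.09 without it. Both Aurora differences, -0.16 and -0.10, were within the median disagreement between probe sets. The checkpoint genes BUB1 (-0.14), BUB3 (-0.14) and BUB1B (-0.11) were also within it. TTK, the checkpoint kinase also called MPS1, went the other way, with 7.39 with the inhibitor and 7.18 without it. PLK4, the kinase that starts centriole duplication, differed by 0.07.

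PLK2 stood apart from its family. This kinase is known as an early response gene of G1 and of cell stress rather than of mitosis. It read 9.45 with the inhibitor and 8.62 without it, 1.78-fold higher, which is the highest difference among the 107 members and the 98.6th percentile of all genes above the floor. PLK3 differed by -0.10, and AURKC and PLK5 were below the floor. The 4 Polo-like kinase genes above the floor therefore ran from -0.51 for PLK1 to 0.83 for PLK2.

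The cyclins were split. CCNA2, the cyclin of S phase and early mitosis, read 8.81 with the inhibitor and 9.15 without it, 1.26-fold lower. The mitotic cyclin CCNB1 read 8.25 with the inhibitor and 8.06 without it, while CCNB2 read 7.17 with the inhibitor and 7.07 without it. Both B-type cyclins were thus higher, by 0.19 and 0.10, on the same arrays on which PLK1 and 13 spindle motors were lower. The CCNB2 difference lay within the median disagreement between probe sets, as did those of some of the motors. That of CCNB1 lay beyond it as deposited (0.19) but just within it, at 0.16, with the median difference of all genes subtracted. CCNB3 was below the floor. MKI67, the proliferation marker that coats mitotic chromosomes, read 9.53 with the inhibitor and 9.74 without it. TOP2A, the topoisomerase that untangles sister chromatids, read 9.34 with the inhibitor and 9.50 without it.

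**Figure D3:**
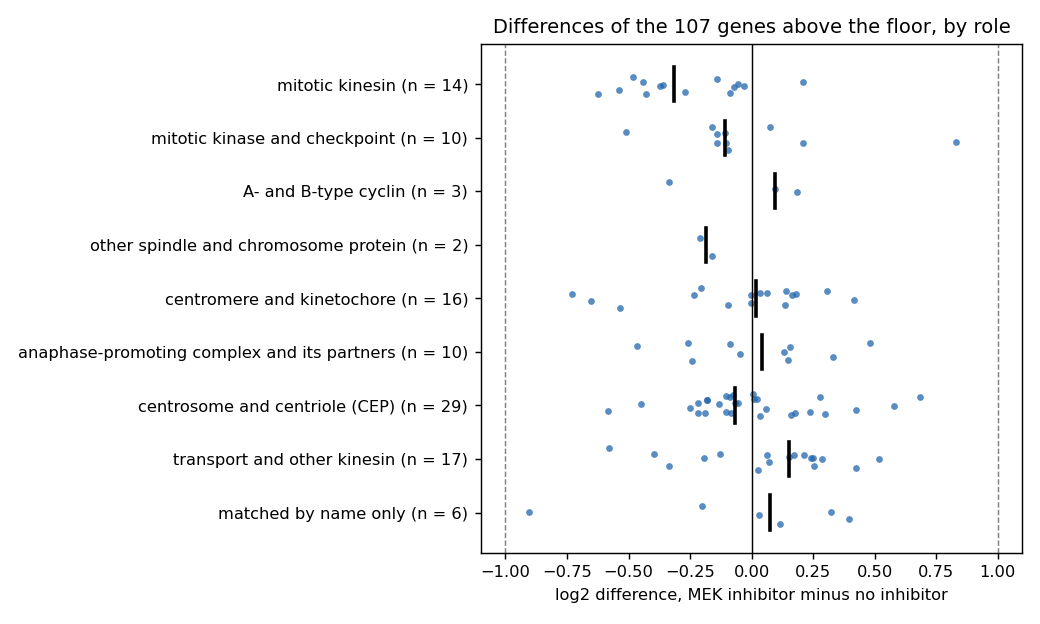
Log2 difference, MEK inhibitor minus no inhibitor (x axis), of each of the 107 members above the floor, by role (rows). Each point is a gene, black bars are medians, and dashed lines mark 2-fold, which no gene reaches. Mitotic kinesins lie lowest, with a median of -0.32.

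The promoters of the G2/M members are shown because these genes are known to share regulatory letters. The cell cycle genes homology region, or CHR, has the letters TTTGAA and is the site through which the MuvB complexes repress such genes in resting cells and activate them in G2, and a variant of it reads TTTAAA. The CCAAT box binds the activator NF-Y. Of the 133 members, 109 had a RefSeq promoter window on GRCh38.p14, which runs from 250 bases before to 50 after the transcription start, and some had several. Among the 29 G2/M members, 27 had one. The following stretches are the 150 bases before the start, 5′ to 3′ on the gene's strand, of 4 genes that read lower and of both B-type cyclins, which read higher. Capitals mark the CHR, its variant and the CCAAT box in either orientation, so that ATTGG is a reverse match of the box, and in these stretches no match overlaps another.
PLK1: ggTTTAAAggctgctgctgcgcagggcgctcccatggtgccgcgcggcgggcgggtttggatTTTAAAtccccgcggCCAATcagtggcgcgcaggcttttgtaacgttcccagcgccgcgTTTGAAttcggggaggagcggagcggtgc
KIF4A: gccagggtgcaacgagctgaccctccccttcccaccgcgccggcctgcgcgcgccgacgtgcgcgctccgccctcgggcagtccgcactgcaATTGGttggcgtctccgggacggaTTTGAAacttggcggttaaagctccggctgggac
KIF20A: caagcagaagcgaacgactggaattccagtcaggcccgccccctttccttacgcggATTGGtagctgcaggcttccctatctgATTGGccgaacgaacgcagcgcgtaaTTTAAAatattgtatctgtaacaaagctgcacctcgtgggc
CDC20: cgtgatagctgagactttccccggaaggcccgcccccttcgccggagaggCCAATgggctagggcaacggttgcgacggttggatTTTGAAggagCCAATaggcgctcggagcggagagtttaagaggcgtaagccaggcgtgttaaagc
CCNB2: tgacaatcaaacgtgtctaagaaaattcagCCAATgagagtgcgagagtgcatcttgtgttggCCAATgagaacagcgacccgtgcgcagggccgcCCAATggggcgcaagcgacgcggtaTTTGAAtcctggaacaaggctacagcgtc
CCNB1: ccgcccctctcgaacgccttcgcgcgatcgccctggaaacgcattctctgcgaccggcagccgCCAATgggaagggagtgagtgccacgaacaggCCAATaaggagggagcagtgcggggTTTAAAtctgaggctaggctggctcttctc

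These stretches lie at chr16:23678739-23678888 (PLK1, plus strand), chrX:70289954-70290103 (KIF4A, plus strand), chr5:138178962-138179111 (KIF20A, plus strand), chr1:43358831-43358980 (CDC20, plus strand), chr15:59104996-59105145 (CCNB2, plus strand) and chr5:69167000-69167149 (CCNB1, plus strand). In PLK1 the CHR begins 29 bases before the transcription start and the CCAAT box 73 bases before it. CCNB2 has its CHR at the same distance, 29 bases, with 3 CCAAT boxes at 54, 87 and 120 bases. KIF4A, CDC20, KIF20A and CCNB1 likewise hold the CHR or its variant and at least 1 CCAAT box in the stretch shown. The same letters therefore stand before genes that read lower and before genes that read higher on these arrays. Those that read higher here are only CCNB1 (0.19) and CCNB2 (0.10), and the CCNB2 difference is within the median disagreement between probe sets. That of CCNB1 is just within it too once the median difference of all genes is subtracted.

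Counted over whole windows and both strands, with overlaps between motifs allowed, the CHR was found in 19 of the 31 windows of G2/M members (61.3%), in 22.2% of the 81 windows of the other members above the floor and in 15.2% of all 35116 windows in the table. The variant was found in 8 of the 31 (25.8%), in 3.70% of the other members' windows and in 12.2% of all windows. The CCAAT box was found in 23 of the 31 (74.2%), in 46.9% of the other members' windows and in 34.6% of all windows. Within the G2/M members, differences did not separate by these letters. The 19 genes with the CHR in a window had a median difference of -0.16, with 16 lower, and the 8 without it had a median of -0.21, with 6 lower. Those 8 include CCNB1, KIF20A and KIF2C, which hold the variant, so genes lacking both forms were not compared. The 8 genes with the variant had a median of -0.15, with 6 lower, and the 19 without it had a median of -0.16, with 16 lower. A match describes letters only, and no binding was measured.

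The centromere and kinetochore genes did not share a direction. Of 16 above the floor, 8 read lower and 8 higher, and the median was 0.02. The lowest were CENPV, a centromere protein that joins the passenger complex, with 6.38 with the inhibitor and 7.11 without it, and CENPM, with 6.17 with the inhibitor and 6.82 without it. They were 1.66-fold and 1.57-fold lower. CENPO read 6.47 with the inhibitor and 7.0 without it. At the other end, CENPQ read 5.02 with the inhibitor and 4.60 without it, 1.33-fold higher from a value below the floor, and CENPP differed by 0.31.

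Genes whose proteins sit in the same subcomplex of the constitutive centromere network did not all share a sign, though many of these differences were small. CENPO, CENPP, CENPQ and CENPU encode subunits of the same subcomplex, and they differed by -0.53, 0.31, 0.42 and 0.14. CENPM, CENPK and CENPI, which encode another subcomplex, differed by -0.65, 0.00 and 0.18, and the fourth subunit gene, CENPH, was below the floor. The histone-fold subunits read -0.23 for CENPW, 0.06 for CENPX and 0.14 for CENPT, and CENPL (0.16) and CENPN (-0.10), which encode partners in reading the centromeric nucleosome, also had opposite signs. CENPQ reached the floor only with the inhibitor, so its direction was fixed. The differences of CENPU, CENPK, CENPX, CENPT and CENPN lay within the median disagreement between probe sets. The centromeric histone gene CENPA read 6.56 in both arrays, and CENPC, whose protein binds it, differed by 0.04. NDC80, the microtubule-gripping subunit of the outer kinetochore, read 6.24 with the inhibitor and 6.44 without it.

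The anaphase-promoting complex was also split, with 5 of 10 genes lower, 5 higher and a median of 0.04. CDC20, the activator that brings mitotic substrates to the complex, read 10.13 with the inhibitor and 10.38 without it, 1.20-fold lower. ANAPC1, the largest scaffold subunit, read 6.60 with the inhibitor against 7.07 in its absence, and the other scaffold genes ANAPC4 (-0.09) and ANAPC5 (-0.05) were close to 0. ANAPC1 has transcribed near-copies, so its value is uncertain. Of these, ANAPC1P2 read 6.89 with the inhibitor against 7.09 without it, and ANAPC1P1 was below the floor. The 2 catalytic subunit genes above the floor went opposite ways, the cullin gene ANAPC2 by -0.24 and the RING finger gene ANAPC11 by 0.48. ANAPC11 read 5.82 with the inhibitor and 5.34 without it. ANAPC16 was 1.26-fold higher, ANAPC13, ANAPC7 and ANAPC15 differed by 0.16, 0.15 and 0.13, and ANAPC10 was below the floor.

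**Figure D4:**
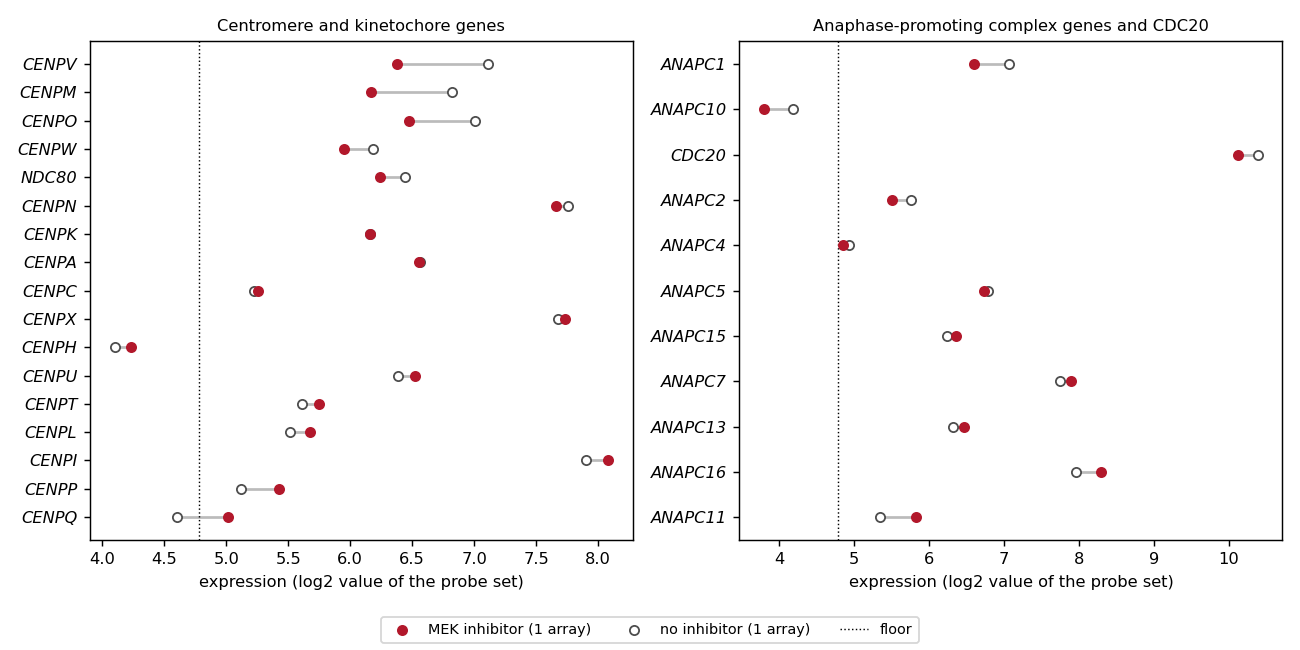
Expression of the 17 centromere and kinetochore genes (left) and of the 11 anaphase-promoting complex genes with CDC20 among them (right) in each array, as the log2 value of the probe set on the x axis, with the MEK inhibitor as filled red points and without it as open points. Red points lie left of the open ones at the top of each panel (CENPV, -0.73, and ANAPC1, -0.47) and right of them at the bottom (CENPQ, 0.42, and ANAPC11, 0.48), and the dotted line is the floor of 4.78.

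Among the CEP genes of centrosomes, centrioles and cilia, 29 of 35 reached the floor, 16 read lower and 13 higher, and the median was -0.07. With the median difference of all genes subtracted the split was 19 lower and 10 higher. The highest were genes of ciliary function, a grouping made after their values were seen. CEP162, which promotes assembly of the ciliary transition zone, read 5.01 with the inhibitor and 4.33 without it, 1.61-fold higher from a value below the floor. Because CEP162 reached the floor only with the inhibitor, its direction was fixed. CEP89, a distal appendage protein that anchors the mother centriole, read 5.98 with the inhibitor and 5.40 without it. CEP78, a centriole protein whose loss causes a human ciliopathy, read 7.17 with the inhibitor and 6.74 without it, and CEP19, which acts at the ciliary base, differed by 0.30. Other genes of these structures lay closer to 0 or lower, with the distal appendage gene CEP164 at 0.01, the transition zone gene CEP290 at 0.06 and the subdistal appendage gene CEP170 at -0.22.

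Genes of centriole duplication and of the pericentriolar material differed in both directions. CEP152 and CEP192, the scaffolds that recruit PLK4, differed by -0.13 and -0.22, and CEP63, the partner of CEP152, by 0.28. CEP135, of the centriole cartwheel, differed by -0.18, whereas CEP120 (0.16) and CEP295 (0.02), of centriole elongation, did not read lower. CEP72, of the pericentriolar material, read 5.32 with the inhibitor and 5.77 without it, and CEP295NL read 4.99 with the inhibitor and 5.57 without it. CEP55, which recruits the abscission machinery to the midbody and is the only G2/M member of this family, read 8.57 with the inhibitor and 8.33 without it.

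The transport and other kinesins differed in both directions. Of 28 named, 11 were below the floor. Of the remaining 17, 12 read higher and 5 lower (29.4%, against 46.1% of all genes above the floor), with a median of 0.15. That count depends in part on the floor, because KIF13A, KIF21B and KIF24 reached it only with the inhibitor and KIFC3 and KIF26A only without it. Of the 12 that reached it on both arrays, 9 read higher and 3 lower, and of all 28 named genes 15 read higher and 13 lower, with a median of 0.03. KIF3C, a motor of the kinesin-II family, read 6.57 with the inhibitor and 6.06 without it, 1.43-fold higher. KIF24, a centriolar kinesin that restrains cilium formation, read 5.16 with the inhibitor and 4.74 without it. The 3 subunit genes of the heterotrimeric motor of intraflagellar transport were all slightly higher, KIF3A by 0.07, KIF3B by 0.15 and KIFAP3 by 0.25, and a dim probe set of KIFAP3 below the floor read 0.54. KIF1B and KIF16B, motors of synaptic vesicle precursors and endosomes, differed by 0.17 and 0.21. A dimmer probe set of KIF1B read -0.15.

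The kinesins that read lower were 5 genes. KIFC3, a minus-end motor of cell junctions, read 4.63 with the inhibitor and 5.21 without it, 1.49-fold lower and below the floor with the inhibitor. KIF13B, a vesicle motor, read 7.25 with the inhibitor and 7.65 without it, and KIF26A differed by -0.34. KIF5B, the ubiquitous conventional kinesin heavy chain, read 10.35 with the inhibitor and 10.55 without it, and KIF21A differed by -0.13. The neuronal motors KIF1A, KIF5A and KIF5C were all below the floor.

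A last set of 9 members met the naming rule without being spindle genes, or were pseudogenes or non-coding. CEP170P1, a pseudogene of CEP170, had the lowest difference of all members, with 4.64 with the inhibitor and 5.54 without it, 1.87-fold lower and ending below the floor. CEP170 itself read 6.81 with the inhibitor and 7.03 without it, and probes of the copies may share signal. NUFIP1, a snoRNP assembly factor that shares only the letters of its symbol with NUF2, read 6.08 with the inhibitor and 5.68 without it. NUFIP2 differed by 0.03, KIFBP, which binds and blocks kinesin motor domains, by 0.12 and the pseudogene CENPBD2P by 0.32. CEP83-DT, CEP192P1 and ANAPC1P1 were below the floor. Without these 9 genes the median difference of the remaining 101 members above the floor was -0.07.

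Lists of related genes that are no members were read beside them. Of 40 other spindle, kinetochore and cytokinesis genes above the floor, 30 read lower (75%, against 46.1% of all genes) and 10 higher. Their median of -0.16 was that of the G2/M members. Within this list SKA3 read 6.01 with the inhibitor and 7.01 without it, 1.99-fold lower, while SKA1, which encodes another subunit of the same microtubule-coupling complex, read 6.08 with the inhibitor and 5.40 without it. The 7 genes of the anaphase-promoting complex and its regulators not named ANAPC had a median of 0.05, with FBXO5, the interphase inhibitor of the complex, highest at 5.42 with the inhibitor and 4.68, below the floor, without it. FZR1, which activates the complex in late mitosis and G1, was next by size, at 0.11. The 11 cohesin and separase genes had a median of -0.04, with SMC3 lowest (-0.21) and MAU2 next by size (-0.18).

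Genes of the preceding cell cycle phase had a median difference closer to 0 than the G2/M members, a contrast that was not tested. Single genes were not all closer, with a range from -0.44 to 0.88, against -0.63 to 0.24 for the G2/M members. The 26 cyclins and replication genes of G1 and S phase had a median of -0.05, with 15 lower (57.7%, against 46.1% of all genes) and 11 higher, and CDK2 was highest, with 9.64 with the inhibitor and 8.76 without it. CCND3 differed by 0.49. Among 14 transcription regulators of the cell cycle the median was -0.05, with 8 lower. Of the activators of G2/M genes, FOXM1 read 8.71 with the inhibitor and 8.66 without it, and MYBL2 read 8.32 with the inhibitor and 7.93 without it. Neither read lower, whereas TFDP1, the partner of E2F factors, differed by -0.53 and E2F3 by -0.44. Above the 75th percentile of expression, 21 of 26 G2/M members were lower, against 47.4% of 3677 genes.

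**Figure D5:**
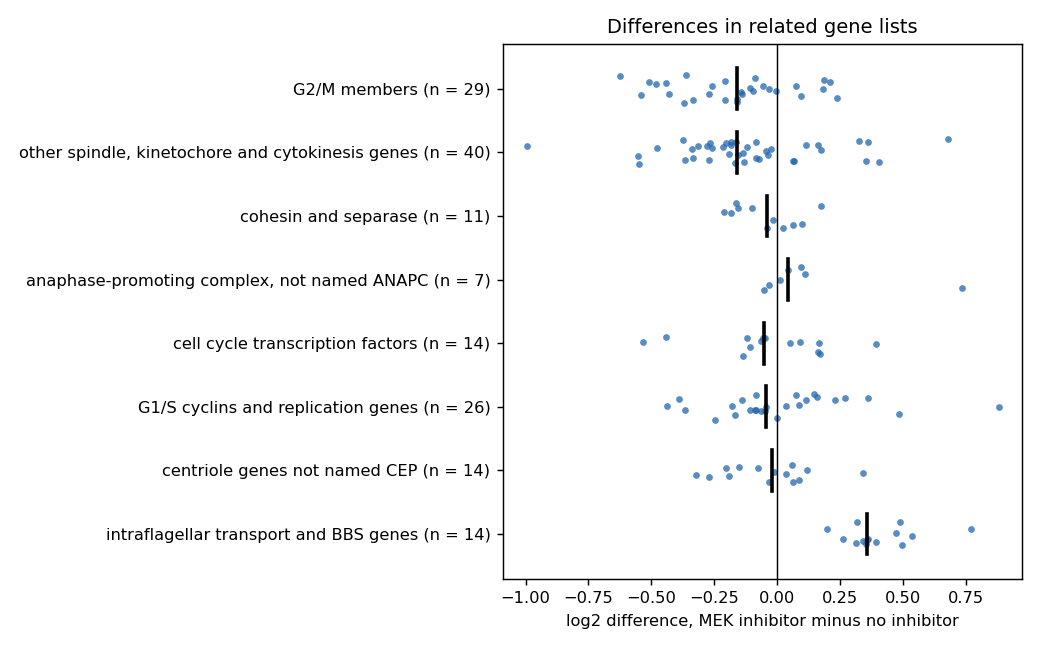
Log2 difference, MEK inhibitor minus no inhibitor (x axis), of each gene above the floor in the G2/M members and in 7 lists of non-members (rows), with black bars at the medians. The G2/M members and the other spindle, kinetochore and cytokinesis genes have the same median (-0.16), and that of the G1/S list is -0.05. The intraflagellar transport and BBS genes above the floor lie to the right of 0. Of these, 3 reached the floor only with the inhibitor and could lie nowhere else.

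Genes of cilium transport mostly read higher with the inhibitor. Of 21 named intraflagellar transport and BBS genes, 11 reached the floor on both arrays and all 11 read higher, from 0.20 (IFT20) to 0.77 (BBS1). Among all named genes that reached the floor on both arrays, 3544 of 6589 read higher. A further 3 (IFT46, IFT140 and IFT172) reached it only with the inhibitor, so they had to read higher, and 7 did not reach it. Over all 21, 20 read higher, against 6991 of all 13763 named genes. IFT27 read lower, with 3.66 with the inhibitor and 4.06 without it. The median over the 21 was 0.34, against 0.01 for all 13763 named genes. BBS1, a subunit of the coat that sorts ciliary membrane proteins, read 6.02 with the inhibitor and 5.25 without it, and IFT52, of the anterograde transport train, read 6.16 with the inhibitor and 5.63 without it. The 14 centriole genes not named CEP had a median of -0.02, with 8 lower and 6 higher, among them OFD1, a ciliary basal body gene, at 0.34 and NIN, a subdistal appendage gene, at -0.32. No cilia were counted, and the differences are those of 1 array per condition.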

How the data were processed

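Total RNA of 2 samples was measured on Affymetrix whole-transcript arrays, 1 with a MEK inhibitor and 1 without it, grouped by their titles. The authors deposited a log2 value for each probe set on each array. That the scale is log2 was judged from the values, which run from 1.16 to 13.38. Affymetrix Expression Console 1.3 was used, per the submitters' processing notes, and the sources used here do not give its settings. Medians over 53617 probe sets were 3.46 with the inhibitor and 3.49 without it, so values were used as deposited, and a shift of all transcripts together would not be seen.

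Probe sets with 1 gene symbol (16098) were used, and 37519 are unnamed here. Symbols starting with MIR or SCARNA were set aside. With 1 array per group no test was possible, the number of arrays limits the precision, and lists are described by counts and medians beside all genes above the floor. The members, the G2/M list, the related lists and the roles were chosen with earlier results of these data known. The grouping of subunits into subcomplexes and of CEP genes by ciliary function was made after their values were seen. By the rule for naming, genes were the 10 highest and 10 lowest members by difference, the 2 largest of each role, 8 well-known mitotic genes, members whose probe sets disagree by 0.5 or more, and the 2 largest of each related list. Further members were named to account for every role, after their values were seen. The procedure was tested on simulated data with known shifts larger than the difference of any member. That test checks the calculation and does not show how well differences as small as those here can be read. Python 3.11.15, numpy 2.4.6, pandas 2.3.3, statsmodels 0.14.6 and matplotlib 3.10.9 were used.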

Additional observations from a re-analysis of the deposited data

How the results depend on the processing

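No paired analysis was possible because there was a single array for either condition, which also means that none could be left out. The alternatives were scaling by the median difference or by a loess trend, no filter, a 75th percentile filter, averaging a gene's probe sets, a 1.5-fold threshold, leaving out the gene with the largest difference and, chosen after seeing the data, leaving out the 9 members matched by name only, taking the mean and setting the floor on the mean of both arrays. The medians of all members and of the G2/M members kept their sign under these. Medians near 0 did not: that of the 78 members outside the G2/M list was -0.00238 with the median difference subtracted and -0.00846 with the loess trend subtracted, that of the centromere and kinetochore genes was -0.01 and -0.02, and that of the anaphase-promoting complex genes was -0.00296 with the loess trend subtracted and -0.05 with no filter. The related list of that complex had 2 of 7 genes lower as deposited, 3 with the median difference subtracted and 4 with the loess trend subtracted. With the floor on the mean of both arrays, 59 of 105 members and 23 of 29 G2/M members were lower. The median of all members ran from -0.10 to -0.05 and that of the G2/M members from -0.19 to -0.15. With the 75th percentile filter 37 of 61 members were lower, fewer because fewer genes were kept. At 1.5-fold 6 members were called, against 0 at 2-fold. Of 135 values of 29 named members, none reversed beyond the median probe set disagreement, and only that of KIFC1 moved by more than it, to -0.19 with its probe sets averaged. Most of these values could not move by that much. A filter leaves a gene's own difference unchanged, and KIFC1 alone among the 29 had several probe sets to average. Subtracting the median shifts every gene by the same 0.03, less than that disagreement. The count is therefore informative mainly for the loess trend.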

Other observations

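Microtubule proteins outside the spindle list were read as well. Above the floor were 15 genes of microtubule-associated proteins, tubulin-folding cofactors and dynactin, and MAP1B reached it only with the inhibitor. With the inhibitor 10 were higher and 5 lower (33.3%, against 46.1% of all genes above the floor), with a median of 0.10. No alpha-tubulin gene was among them. MAP1B, a microtubule-stabilising protein best known from neurons, read 5.14 with the inhibitor and 3.84 without it, 2.46-fold higher from a value below the floor. DCTN2, a subunit of the dynactin complex that links dynein to its cargo, read 7.07 with the inhibitor and 6.32 without it. STMN3, a stathmin that destabilises microtubules, read 5.88 with the inhibitor and 6.46 without it.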
